A study of Mus musculus with 6 samples.

Results

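The tyrosine and dual-specificity phosphatase genes were examined in the hearts of mice without the melanocortin-4 receptor. The genes were chosen by name as the protein-coding genes called Ptpn or Dusp with a number, or Ptpr with a letter (Ptprn2 included). There were 60 of them among the 54532 genes of the deposited table: 24 Dusp, 17 Ptpn and 19 Ptpr genes. Polyadenylated RNA was sequenced from 3 wild-type (WT) mice and 3 homozygous Mc4r knockout (Mc4r KO) littermates, all 12 weeks of age, on a C57B/6/N background and fed standard chow, with 1 library per mouse. The purchased knockout line carries the deletion in the germline, so receptor loss is not limited to the heart, and neither group is described as treated before anaesthesia at collection. The tissue is given as heart in most label fields, as muscle in the sample titles and as left ventricle in the discussion of the study.

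Protein kinases put phosphate on tyrosine, and these phosphatases take it off. The receptor-type enzymes (Ptpr) span the plasma membrane, the non-receptor enzymes (Ptpn) act inside the cell, and the dual-specificity enzymes (Dusp) can also act on serine and threonine, or on substrates that are not proteins. The MAP kinase phosphatases, a branch of the Dusp family, switch off ERK, JNK and p38 by removing phosphate from both the threonine and the tyrosine of their activation loop. In the heart these kinases take part in growth and stress signalling.

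Between 14691076 and 16047003 reads were recovered on genes in the 6 libraries. For a gene of 1 kb, 3 reads amount to 0.176 to 0.213 FPKM, a level per gene length and scaled between libraries. Mc4r had 2 reads in WT replicate 3 and 0 in the other 5 libraries, which is too few to check the genotype. Mitochondrially encoded genes took 59.3%, 57.4% and 47.1% of all FPKM in WT and 43.6%, 46.6% and 43.0% in Mc4r KO, without overlap between the groups. The 8 cardiomyocyte markers were all tested and together ranged from 12296 to 12974 FPKM in WT and from 14868 to 16408 in Mc4r KO, again without overlap. By gene, 5 were higher and 3 lower in Mc4r KO, and 3 of the higher ones did not overlap. This sum leans on Actc1, the most abundant, at 5178 ± 528 FPKM in WT and 7539 ± 666 in Mc4r KO (n = 3). The 9 skeletal muscle markers summed to at most 2.67 FPKM, with Myh4 at 0 in every library, so the RNA had the markers of heart and hardly any of skeletal muscle. WT replicate 3 stood apart in its 5 atrial markers, with a sum of 797.5 FPKM against 28.7 and 95.2 in WT replicates 1 and 2 and 6.29 to 136.5 in Mc4r KO. Its log2 levels correlated at r = 0.946 and 0.952 with WT replicates 1 and 2. With Mc4r KO replicates 1, 2 and 3 they correlated at 0.962, 0.951 and 0.952. WT replicates 1 and 2 correlated at 0.967. In the study's read statistics these 2 libraries had a lower GC content and more multi-mapped reads than any other library. The 8 fibroblast markers summed to 252.7 to 288.7 FPKM in WT and 195.9 to 233.1 in Mc4r KO, without overlap. By gene, 2 were higher and 6 lower, and only Dcn and Lum did not overlap. Dcn, the most abundant, was at 119.3 ± 8.94 FPKM in WT and 82.4 ± 5.03 in Mc4r KO (n = 3). The 7 adipocyte markers were near 0 but their sums did not overlap either (0.466 to 1.02 and 0.0283 to 0.328 FPKM, with Lep, Retn and Ucp1 at 0). Only Cfd of these was tested, from 5, 11 and 9 reads in WT and 3, 0 and 0 in Mc4r KO. The 5 erythrocyte markers summed to 859.4 to 6344 FPKM in WT and 620.3 to 1651 in Mc4r KO, with overlap; all 5 had a negative log2 fold change and 3 an unadjusted p under 0.05. No gene of the 10 marker lists was called by limma or limma voom.

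Groups were compared with limma on log2(FPKM + 0.1) over the 18035 genes whose mean FPKM reached 0.1, and 50 of the 60 phosphatase genes passed this filter. A call needs an adjusted p under 0.05 together with a log2 fold change beyond 0.75 in either direction. The fold changes given here are on this scale, Mc4r KO over WT, and understate the change of weakly expressed genes. Ptpn11, which encodes the phosphatase SHP2, was called higher, and it was the only phosphatase gene called in either direction. This is 1 of 50 genes, or 2.0%, beside 0.316% of all genes tested that were called higher. No phosphatase gene was called lower by limma or by limma voom, beside 0.144% of all genes, and only Ptpn12 was lower with an unadjusted p under 0.05. Dusp18 was the only other member with an adjusted p under 0.05. Together with Ptpn11 it made up 4.0% of the members, beside 0.582% of all genes tested. All members are protein-coding, while the genes tested include noncoding ones. With protein-coding genes only, 204 of 13546 genes were called and 460 had an adjusted p under 0.05, with the same members. The member shares rest on 1 and 2 genes and cannot be read as particular to the phosphatases.

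Over the whole set, 21 genes had a positive and 29 a negative log2 fold change, with a median of -0.07 beside -0.01 over all genes tested. The values ran from -0.90 for Dusp14 to 0.97 for Ptpn11. The change was under 0.25 in size for 27 of the 50, and the 95% interval included 0 for 45 of them. The unadjusted p was under 0.05 for 5 of the 50, beside 20.9% of all genes tested. All 3 Mc4r KO values lay above all 3 WT values for 5 of the 50 members, beside 14.1% of all genes, and below them for 8 (16.0%), beside 12.4%. These shares are near those of all genes. With the FPKM scaled to their sum without mitochondrial genes, 12 members were positive and 38 negative, and the median was -0.26 beside -0.19 over all genes. With 3 mice against 3, an exact permutation test cannot give a two-sided p below 0.1. The 10 members left untested were 4 Dusp, 2 Ptpn and 4 Ptpr genes, of which Dusp21, Ptpn5 and Ptprq had 0 reads in every library.

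**Figure D1:**
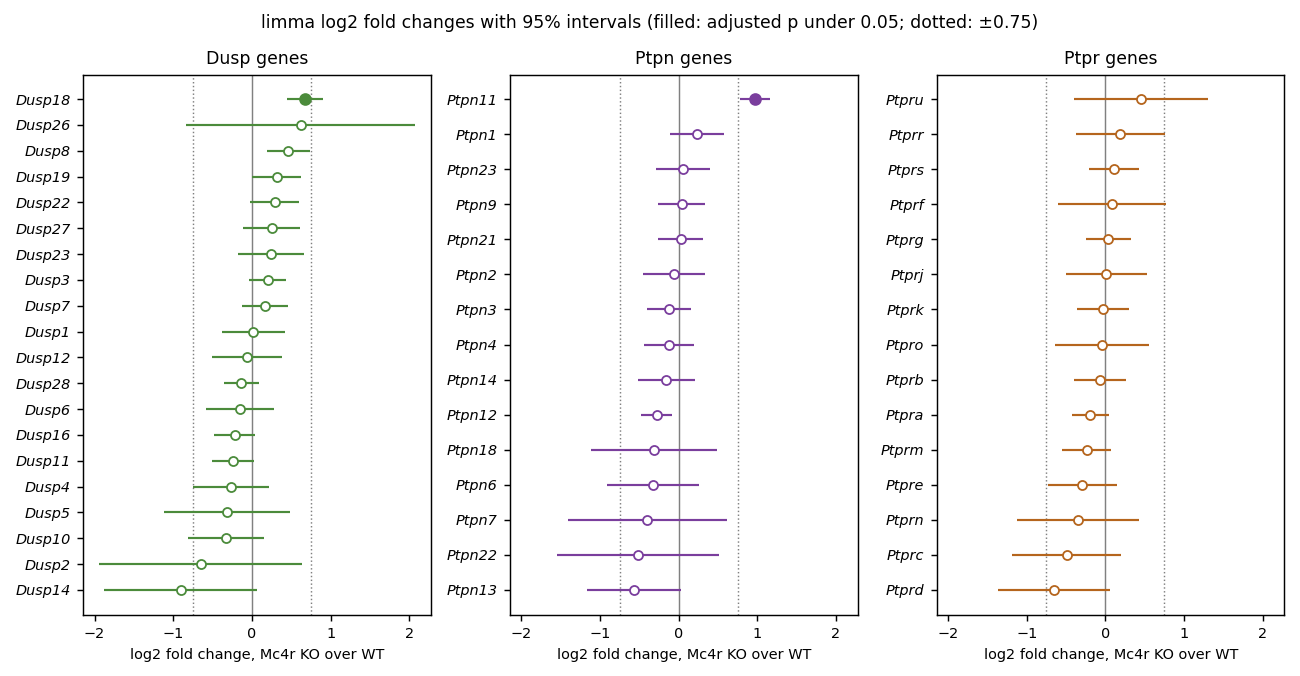
The limma log2 fold change (Mc4r KO over WT, horizontal axis) of the 50 tested genes is shown as a point with its 95% interval, in 3 panels for the Dusp, Ptpn and Ptpr genes. Filled points have an adjusted p under 0.05 and dotted lines mark 0.75 in both directions; Ptpn11 at 0.97 is the only filled point beyond a dotted line, and Dusp18 at 0.67 is the other filled point.

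Ptpn11 (ENSMUSG00000043733) lies on chromosome 5 from 121130533 to 121191397, on the minus strand of mm10, the build named in the submitters' processing notes. Its product SHP2 is recruited to activated growth factor receptors and docking proteins and promotes signalling through Ras to ERK, and inherited variants of the human gene are a known cause of Noonan syndrome, a disorder that affects the heart. The gene was at 25.2, 28.6 and 27.4 FPKM in the WT mice and at 50.8, 53.3 and 55.0 FPKM in the Mc4r KO mice, from 2666, 3075 and 3501 reads and from 5902, 6070 and 6611 reads. The groups did not overlap, and the lowest Mc4r KO value was well above the highest WT value. The means were 27.1 ± 1.70 and 53.0 ± 2.14 FPKM (SD, n = 3), a ratio of 1.96. The log2 fold change was 0.97 with a standard error of 0.08 and a 95% interval of 0.77 to 1.16, and the limma adjusted p was 0.00974. With limma voom on the recovered reads the adjusted p was 0.000987. None of the exons of Ptpn11 overlaps another gene in GENCODE M21, and 0.0663% of its 50-base words occur in another gene.

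The call for Ptpn11 depended on the libraries and on the variance model, while its direction did not. Over 18 alternative settings the log2 fold change lay between 0.77 and 1.01. The adjusted p was 0.00523 without WT replicate 3. Without WT replicate 1 or 2, or Mc4r KO replicate 1, 2 or 3, it was 0.0669, 0.0562, 0.0525, 0.0700 and 0.0603. Without the mean-variance trend it was 0.0778. Few genes of any kind had an adjusted p under 0.05 in these fits, beside 105 in the main fit. They numbered 7, 9, 9, 11 and 14 without those libraries, in the same order, and 21 without the trend. With the mitochondrial share as a covariate they numbered 2, and without WT replicate 3 they numbered 1846. The mitochondrial share and the cardiomyocyte marker sum moved with the groups, as given above. With the mitochondrial share as a covariate the log2 fold change was 0.92 with an adjusted p of 0.128, and the part of the marker sum in the result was not tested. In bulk tissue, a change in the number of cells of a type and a change in the RNA per cell cannot be told apart.

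The level of Ptpn11 was also set against other phosphatases of the same library, which no scaling between libraries can change. Ptpn11 made up 32.4%, 36.6% and 34.7% of the summed FPKM of the 17 Ptpn genes in WT and 52.2%, 52.7% and 52.8% in Mc4r KO. Its share was therefore higher in each Mc4r KO mouse than in any WT mouse (34.6% ± 2.09 and 52.6% ± 0.313, n = 3, exact permutation p = 0.1, the smallest possible). Ptpn11 was picked for its difference in these libraries and is part of the sum, so this p restates that difference. The remaining 16 Ptpn genes together were at 51.2 ± 1.59 FPKM in WT and 47.8 ± 1.36 in Mc4r KO, again without overlap but in the other direction (exact permutation p = 0.1). Unlike a share or ratio, this sum depends on the scaling between libraries. It was 55.0 ± 3.84 in WT and 44.8 ± 0.969 in Mc4r KO with scaling to the sum without mitochondrial genes (exact permutation p = 0.1). The ratio of Ptpn11 to Dusp1, the member next below it in mean FPKM, was 0.815, 0.919 and 0.570 in WT and 1.35, 1.47 and 1.55 in Mc4r KO. Ptpn11 was thus below Dusp1 in every WT library and above it in every Mc4r KO library.

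**Figure D2:**
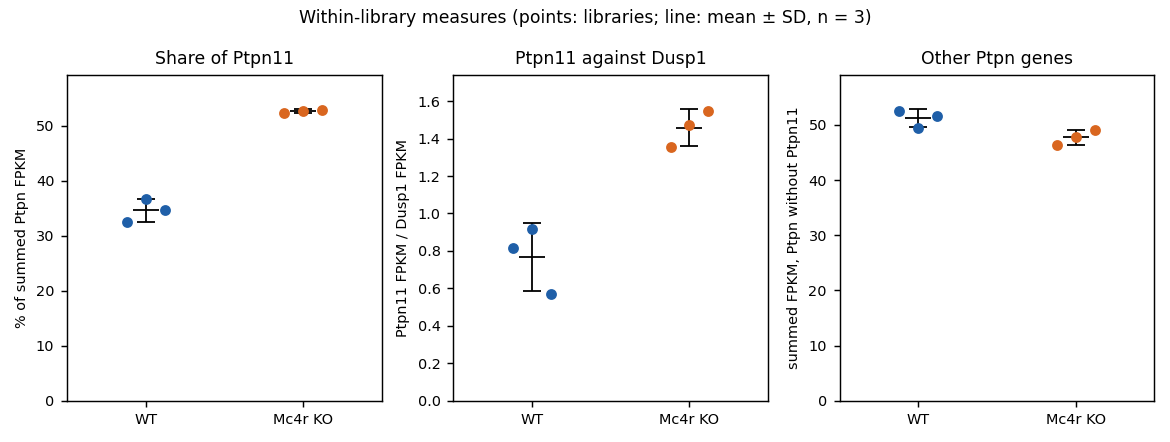
Points are the 6 libraries and lines the mean ± SD (n = 3) of Ptpn11 as a percentage of the summed Ptpn FPKM (left), the ratio of Ptpn11 to Dusp1 FPKM (middle) and the summed FPKM of the other Ptpn genes (right). The Ptpn11 share is 32.4% to 36.6% in WT and 52.2% to 52.8% in Mc4r KO, while the sum of the other Ptpn genes is lower in Mc4r KO. Only this sum depends on the scaling between libraries.

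The protein-coding genes on either side of Ptpn11 were not called. Rpl6, a ribosomal protein gene 13.1 kb away, was at 69.6 ± 5.63 FPKM in WT and 72.5 ± 2.67 in Mc4r KO (log2 fold change 0.06, limma adjusted p = 0.735, n = 3). Rph3a, on the other side, had 0 reads in every library. The 250 bases upstream of the RefSeq start of Ptpn11 are shown because this member carries the main difference. They span chr5:121191398-121191647 of GRCm38.p6 (minus strand), hold 66.8% G and C, and are written 5′ to 3′ with the motifs found in capitals: CCGGAAG (an ETS core), TGACGTCA (a cyclic AMP response element) and GGGCGG (a GC box).

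Ptpn11: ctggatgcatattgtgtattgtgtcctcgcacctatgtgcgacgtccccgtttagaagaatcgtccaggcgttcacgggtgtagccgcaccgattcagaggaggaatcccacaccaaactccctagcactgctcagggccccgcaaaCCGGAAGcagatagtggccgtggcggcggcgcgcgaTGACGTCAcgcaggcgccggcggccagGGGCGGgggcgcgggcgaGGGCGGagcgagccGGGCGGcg

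The cyclic AMP response element ends 59 bases before the start. Motifs were searched on both strands in the 250 bases upstream of 32851 RefSeq promoters, 66 of which belong to 49 of the phosphatase genes. TGACGTCA was found in 1.55% of all promoters and in 4 of the 66 member promoters, from the genes Ptpn11, Dusp1, Dusp8 and Ptpru. Their log2 fold changes were 0.97, 0.02, 0.46 and 0.45, all positive, beside 21 positive values among the 50 tested members. The interval included 0 for Dusp1 (-0.39 to 0.42) and for Ptpru (-0.40 to 1.30, limma adjusted p = 0.530). A link between the motif and the fold change was not tested, since 4 genes are too few. Ptpru was outside the rule for named genes and is named for the motif. GGGCGG was found in 32.7% of all promoters and in 35 of the 66 member promoters, from 33 genes. CCGGAAG was in 6.91% of all and 4 of the 66, the E-box CACGTG in 6.02% and 3, and TATAAA in 12.4% and 2. No 2 of the motif matches printed here overlap, and a match describes letters only, not binding of a factor.

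Dusp18 (ENSMUSG00000047205), a small atypical dual-specificity phosphatase whose protein has been located to mitochondria, lies on chromosome 11 from 3895240 to 3901296. It was at 10.1, 12.0 and 10.01 FPKM in WT and at 17.2, 17.5 and 16.4 FPKM in Mc4r KO, from 662, 796 and 790 reads and from 1239, 1232 and 1222 reads. The groups did not overlap, with means of 10.7 ± 1.09 and 17.1 ± 0.552 FPKM (n = 3) and a ratio of 1.59. The log2 fold change of 0.67 (standard error 0.10, 95% interval 0.44 to 0.90) had a limma adjusted p of 0.0445 and stayed under the fold threshold of the call. Dusp18 made up 6.65% ± 0.888 of the summed Dusp FPKM in WT and 9.73% ± 0.262 in Mc4r KO (n = 3, exact permutation p = 0.1). It too was picked for its difference in these libraries, so this p restates that difference.

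The adjusted p of Dusp18 crossed 0.05 with changes of the processing. In limma it was 0.0528 with a pseudocount of 1, 0.0653 with no filter on low values and 0.0704 with quantile normalization. Over 18 settings the log2 fold change lay between 0.48 and 0.77 and the adjusted p between 0.00921, with limma voom, and 0.227, with the mitochondrial share as a covariate. It was 0.0184 without WT replicate 3 and 0.157, 0.0859, 0.128, 0.178 and 0.145 without WT replicate 1 or 2 or Mc4r KO replicate 1, 2 or 3. In the fits without those other libraries, 7 to 14 genes in all had an adjusted p under 0.05. With scaling to the sum without mitochondrial genes it was 0.109.

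Dusp18 stands head to head with 4921536K21Rik, a gene on the minus strand whose start is 0.142 kb from that of Dusp18. The bases between both starts are shown because the genes share them. They span chr11:3895099-3895239 (plus strand, GRCm38.p6), hold 59.6% G and C and contain 1 GC box, in capitals.

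Dusp18: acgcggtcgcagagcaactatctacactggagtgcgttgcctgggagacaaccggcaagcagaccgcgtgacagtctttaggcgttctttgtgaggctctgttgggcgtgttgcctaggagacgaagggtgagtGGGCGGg

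4921536K21Rik was weakly expressed, at 0.157 ± 0.0775 FPKM in WT and 0.595 ± 0.0199 in Mc4r KO (n = 3), without overlap. Its log2 fold change was 1.48 (adjusted p = 0.0782 with limma and 0.0387 with limma voom), so it was not called by limma. Slc35e4, on the other side of Dusp18, had a log2 fold change of 0.56 (limma adjusted p = 0.257). Both were looked at for their position.

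**Figure D3:**
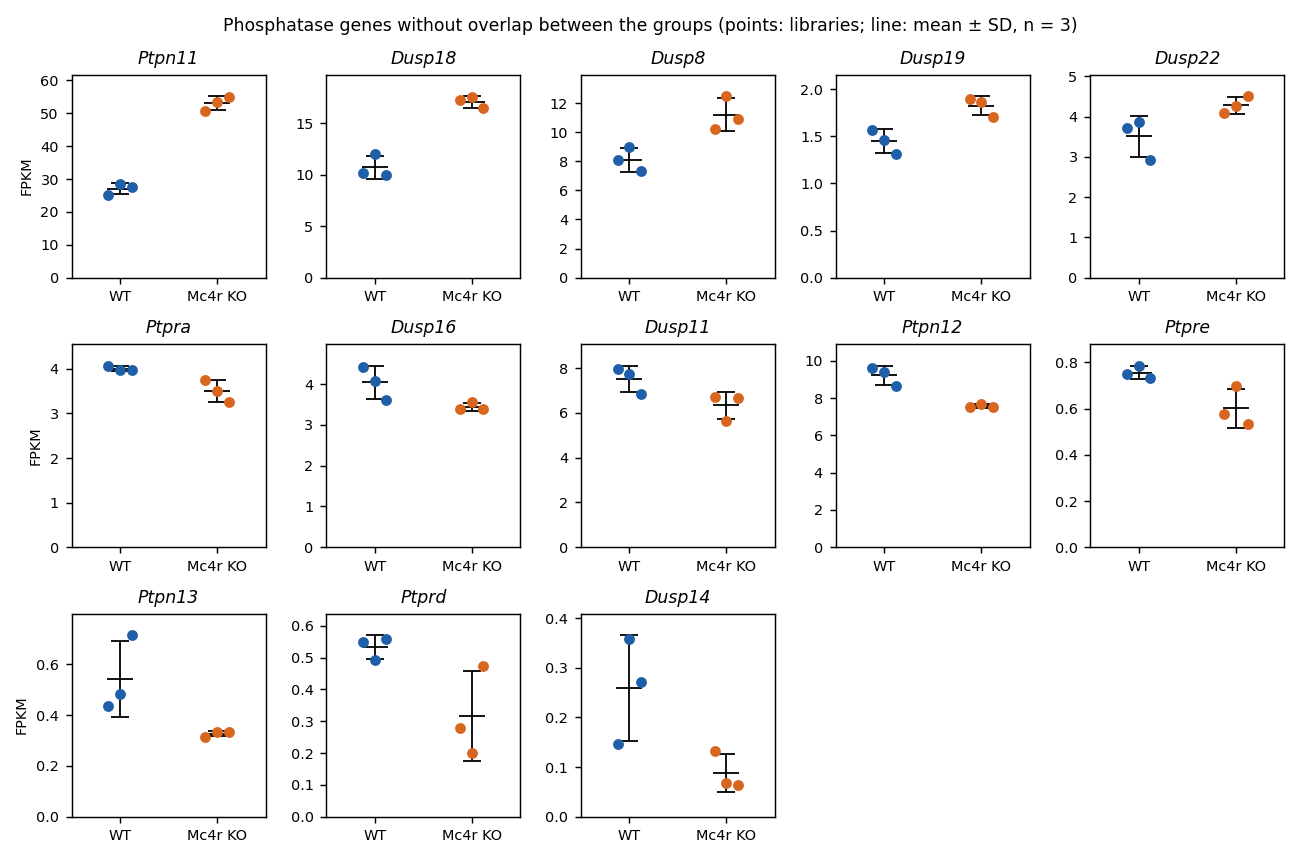
FPKM of the 13 tested phosphatase genes whose 3 WT and 3 Mc4r KO values do not overlap, with a point for each library and the mean ± SD (n = 3), on vertical axes that start at 0 and differ between panels. The first 5 genes are higher and the other 8 lower in Mc4r KO, and the gap between the groups is widest for Ptpn11 and Dusp18.

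The MAP kinase phosphatases were read next, since they act on the pathway that SHP2 feeds. Of the 10 genes, 9 were tested and none was called by limma or limma voom, while 1 had an unadjusted p under 0.05. The log2 fold change was positive for 3 and negative for 6, with a median of -0.22, and the lowest limma adjusted p was 0.105. Their summed FPKM was 86.3 ± 12.4 in WT and 88.5 ± 4.52 in Mc4r KO (n = 3, exact permutation p = 0.8), so the total did not differ beyond the spread. With scaling to the sum without mitochondrial genes it turned, at 92.2 ± 6.52 in WT and 83.0 ± 3.99 in Mc4r KO, without overlap (n = 3, exact permutation p = 0.1).

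Among the nuclear, inducible enzymes, Dusp1 (MKP-1), an early response gene that acts on p38 and JNK, dominated the class. It was at 31.0, 31.1 and 48.2 FPKM in WT and at 37.5, 36.2 and 35.5 in Mc4r KO. WT replicate 3 was the highest of all libraries, and the Mc4r KO values fell between the WT values. The means were 36.7 ± 9.90 and 36.4 ± 0.982 FPKM (n = 3), and the log2 fold change of 0.02 had a 95% interval from -0.39 to 0.42 (limma adjusted p = 0.967). Without WT replicate 3 the log2 fold change was 0.23. Dusp5, a nuclear phosphatase of ERK, was likewise highest in WT replicate 3, at 2.32, 1.63 and 4.39 FPKM in WT and 2.08, 1.65 and 2.47 in Mc4r KO, and 22.1% of its exonic bases lie opposite another gene. Dusp4 was at 1.04, 1.52 and 1.14 FPKM in WT and at 1.22, 0.913 and 0.887 in Mc4r KO, with overlap. Dusp2, best known from lymphocytes, had between 3 and 20 reads per library and also overlapped between the groups.

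The cytoplasmic enzymes that act on ERK showed no separation either. Dusp6 (MKP-3), a feedback gene induced by ERK itself, was at 9.03, 9.45 and 9.69 FPKM in WT and at 8.82, 10.8 and 6.31 in Mc4r KO. The Mc4r KO libraries held both the highest and the lowest value (log2 fold change -0.15, interval -0.59 to 0.28, limma adjusted p = 0.674). Dusp7 was at 17.98, 21.8 and 23.7 FPKM in WT and at 21.6, 26.0 and 23.3 in Mc4r KO (log2 fold change 0.16, limma adjusted p = 0.506). Dusp9, known from placenta and liver, had 3 reads in Mc4r KO replicate 1 and 0 in the other libraries.

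The 3 enzymes that prefer JNK and p38 differed in sign. Dusp8 was at 8.08, 8.95 and 7.31 FPKM in WT and at 10.2, 12.5 and 10.9 in Mc4r KO, without overlap. Its log2 fold change was 0.46 with a standard error of 0.12, and the adjusted p was 0.105 with limma and 0.0489 with limma voom. Dusp16 was at 4.43, 4.07 and 3.61 FPKM in WT and at 3.38, 3.56 and 3.38 in Mc4r KO, without overlap in the other direction, but the gap was small (log2 fold change -0.22, limma adjusted p = 0.313). Dusp10 was at 3.19, 2.08 and 1.83 FPKM in WT and at 1.76, 1.80 and 1.91 in Mc4r KO, where WT replicate 1 stood high and the other values lay close together (log2 fold change -0.33, limma adjusted p = 0.417).

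**Figure D4:**
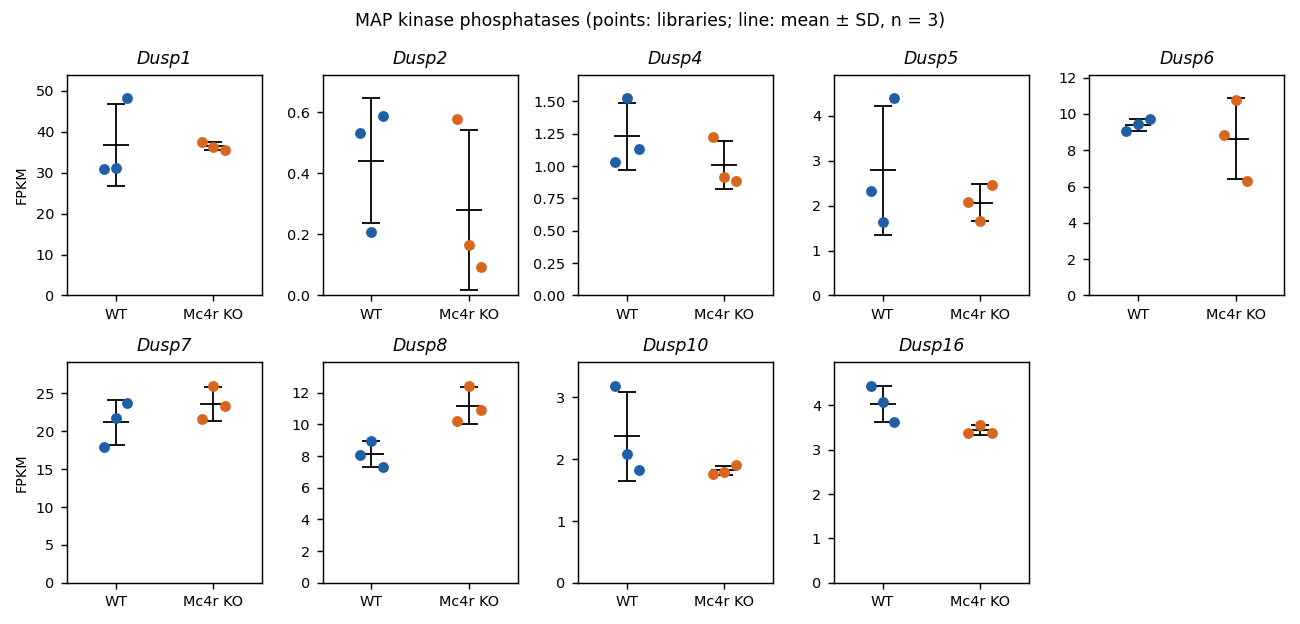
FPKM of the 9 tested MAP kinase phosphatases, with a point for each library and the mean ± SD (n = 3), on vertical axes that start at 0. Dusp8 is higher and Dusp16 lower in Mc4r KO without overlap, while the other 7 genes overlap and Dusp1 and Dusp5 have their highest value in WT replicate 3.

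The atypical dual-specificity genes are small enzymes with varied substrates. Of the 14, 11 were tested, with 7 positive and 4 negative log2 fold changes and a median of 0.24. Apart from Dusp18 none had an adjusted p under 0.05. Dusp3 (VHR), which can act on ERK and JNK, was the most abundant, at 22.8 ± 1.82 FPKM in WT and 26.2 ± 2.21 in Mc4r KO (n = 3). Its log2 fold change was 0.20 (interval -0.03 to 0.43, limma adjusted p = 0.304), and 12.9% of its exonic bases lie opposite another gene.

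Dusp19 and Dusp22, both tied to JNK signalling, were higher in each Mc4r KO mouse than in any WT mouse. Dusp19 was at 1.56, 1.47 and 1.31 FPKM in WT and at 1.89, 1.87 and 1.71 in Mc4r KO (log2 fold change 0.32, limma adjusted p = 0.237). Dusp22 was at 3.72, 3.87 and 2.93 FPKM in WT and at 4.09, 4.25 and 4.50 in Mc4r KO (log2 fold change 0.29, limma adjusted p = 0.268). Neither passed the test. Dusp11, an RNA phosphatase that trims the 5′ triphosphate of RNA, was lower without overlap, with values of 7.95, 7.75 and 6.83 FPKM in WT and 6.70, 5.63 and 6.69 in Mc4r KO (log2 fold change -0.24, limma adjusted p = 0.273). Dusp14 had the most negative fold change of the set, but from 4, 10 and 9 reads in WT and 4, 2 and 2 in Mc4r KO (log2 fold change -0.90, interval -1.87 to 0.07, limma adjusted p = 0.269). WT replicate 1 and Mc4r KO replicate 1 had equal read numbers, so the groups are apart only after scaling.

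Among the non-receptor tyrosine phosphatases, 15 of 17 were tested. The log2 fold change was positive for 5 and negative for 10, with a median of -0.13. Ptpn12 (PTP-PEST), which acts on proteins of cell adhesion and motility, was at 9.62, 9.40 and 8.65 FPKM in WT and at 7.51, 7.69 and 7.51 in Mc4r KO. The groups did not overlap, the fold change of -0.28 had a standard error of 0.09, and the limma adjusted p was 0.136. It was the only tested Ptpn gene besides Ptpn11 whose interval left out 0 (-0.48 to -0.08). Ptpn13, a large scaffold-like phosphatase, was at 0.434, 0.483 and 0.713 FPKM in WT and at 0.314, 0.332 and 0.335 in Mc4r KO, lower without overlap (log2 fold change -0.57, limma adjusted p = 0.262).

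The 2 classical brakes on cytokine and insulin signalling did not separate. Ptpn1 (PTP1B), which acts on the insulin and leptin receptors, was at 4.08, 3.42 and 4.98 FPKM in WT and at 4.69, 4.89 and 4.97 in Mc4r KO (log2 fold change 0.23, interval -0.11 to 0.57, limma adjusted p = 0.409). WT replicate 3 was just above the highest Mc4r KO value. Ptpn2 (TC-PTP), which acts on JAK and STAT proteins, shares its chromosome with Mc4r at a distance of 805 kb. It was at 5.13, 3.50 and 4.23 FPKM in WT and at 3.61, 4.68 and 3.99 in Mc4r KO, with full overlap (log2 fold change -0.06, interval -0.45 to 0.34, limma adjusted p = 0.880). Ptpn3, a phosphatase of the membrane cytoskeleton, was at 10.9, 9.74 and 9.87 FPKM in WT and at 8.28, 9.07 and 10.8 in Mc4r KO (log2 fold change -0.12, limma adjusted p = 0.585).

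The receptor-type phosphatases held no gene called by limma or limma voom and none with an unadjusted p under 0.05 in limma. Of 19 genes, 15 were tested, 6 with a positive and 9 with a negative log2 fold change, with a median of -0.05 and a lowest limma adjusted p of 0.272. Their summed FPKM was 58.2 ± 5.75 in WT and 54.1 ± 2.04 in Mc4r KO (n = 3, exact permutation p = 0.4), and 62.8 ± 10.2 and 50.7 ± 3.56 with scaling to the sum without mitochondrial genes (exact permutation p = 0.2). Ptprb (VE-PTP), the receptor phosphatase of endothelium, was the most abundant, at 21.8, 21.5 and 15.9 FPKM in WT and at 19.7, 19.3 and 17.0 in Mc4r KO. These values overlapped (log2 fold change -0.07, interval -0.40 to 0.26, limma adjusted p = 0.816). The 10 endothelial markers summed to 204.3 to 228.5 FPKM in WT and 217.7 to 249.9 in Mc4r KO, with overlap. By gene, 6 were higher and 4 lower, and 4 of the higher and 1 of the lower did not overlap. An unadjusted p under 0.05 was found for 5 of the 10, beside 20.9% of all genes tested. The part of endothelial RNA in the values of Ptprb was not tested.

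Ptprm, an adhesion-linked receptor that binds itself on neighbouring cells, was at 14.1, 15.6 and 11.1 FPKM in WT and at 11.6, 11.1 and 11.5 in Mc4r KO. WT replicate 3 fell just below the lowest Mc4r KO value (log2 fold change -0.24, limma adjusted p = 0.357). Without that library the log2 fold change was -0.38 with a limma adjusted p of 0.0412. In that fit 1846 of 17966 genes had an adjusted p under 0.05, beside 105 with all libraries. Over 18 settings the log2 fold change of Ptprm ran from -0.43 to 0.077 and its adjusted p up to 0.909. Ptprg was at 7.28 ± 0.974 FPKM in WT and 7.43 ± 0.457 in Mc4r KO, and Ptprs, a receptor for proteoglycans, at 3.96 ± 0.610 and 4.26 ± 0.274 (n = 3), with log2 fold changes of 0.04 and 0.11.

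Ptpra, Ptpre and Ptprd were lower in Mc4r KO without overlap, and none passed the test. Ptpra, an activator of Src kinases, was at 4.07, 3.98 and 3.97 FPKM in WT and at 3.75, 3.51 and 3.25 in Mc4r KO (log2 fold change -0.19, limma adjusted p = 0.337). Ptpre, its closest relative, was at 0.751, 0.785 and 0.731 FPKM in WT and at 0.575, 0.697 and 0.532 in Mc4r KO (log2 fold change -0.29, limma adjusted p = 0.420). Ptprd, best known from neurons, was at 0.550, 0.491 and 0.558 FPKM in WT and at 0.279, 0.199 and 0.472 in Mc4r KO (log2 fold change -0.65, interval -1.36 to 0.05, limma adjusted p = 0.272). The Mc4r KO values of Ptprd were widely spread, with replicate 3 close to WT.

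A few members are used as markers of blood cells and are named here outside the rule. Ptprc (CD45) was at 0.817, 0.502 and 1.03 FPKM in WT and at 0.658, 0.478 and 0.415 in Mc4r KO (log2 fold change -0.49, limma adjusted p = 0.393), and Ptpn6 (SHP-1) had a log2 fold change of -0.33 (limma adjusted p = 0.501). Both overlapped between the groups. The 15 leukocyte markers, of which 14 were tested, summed to 155.5 to 227.3 FPKM in WT and 163.3 to 220.0 in Mc4r KO, also with overlap. Most of this sum is Lyz2, and without it the sums were 54.3 to 86.8 and 46.8 to 69.9 FPKM. By gene, 10 of the 14 had a negative log2 fold change like Ptprc and Ptpn6, with a median of -0.20, and 5 had an unadjusted p under 0.05, of which 4 were lower. The part of leukocyte RNA in the values of Ptprc and Ptpn6 was not tested.

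By FPKM, which is per gene length, the 60 genes spanned from 0 to a mean of 40.1 for Ptpn11 over the 6 libraries, and 35 had a mean of at least 1. In WT the order began with Dusp1, Ptpn11, Dusp3, Dusp7 and Ptprb, where Dusp1 and Ptpn11 each stood clear of the next gene and the ranges of Dusp3, Dusp7 and Ptprb overlapped. In Mc4r KO it began with Ptpn11, Dusp1, Dusp3, Dusp7 and Ptprb, where only the ranges of Dusp3 and Dusp7 overlapped among neighbours. The sum over all 60 genes was 298.1 ± 9.31 FPKM in WT and 330.3 ± 6.69 in Mc4r KO (n = 3, exact permutation p = 0.1). Without Ptpn11 the libraries overlapped, at 271.1 ± 7.999 and 277.3 ± 6.30 FPKM (n = 3, exact permutation p = 0.4). With scaling to the sum without mitochondrial genes the total of all 60 turned, at 320.3 ± 17.0 in WT and 309.7 ± 7.22 in Mc4r KO, with overlap (n = 3, exact permutation p = 0.5). Ptpn11 made up 9.08% ± 0.381 of that sum in WT and 16.1% ± 0.623 in Mc4r KO.

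**Figure D5:**
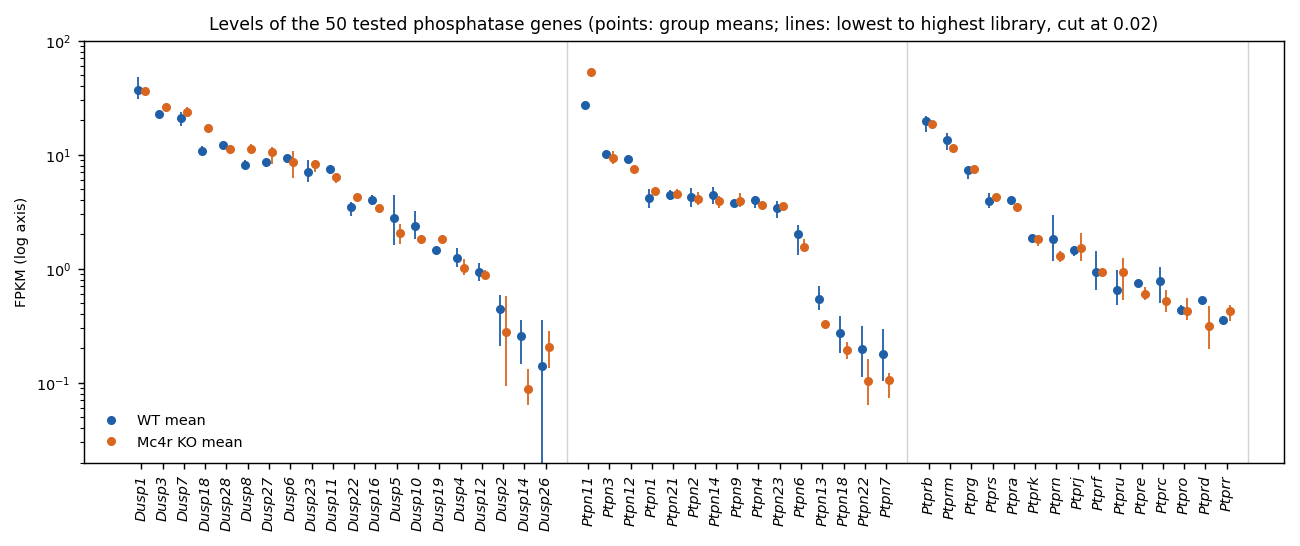
Mean FPKM in WT and in Mc4r KO of the 50 tested genes (points, log axis) with lines from the lowest to the highest library, sorted within the Dusp, Ptpn and Ptpr genes. Ptpn11 has the highest Mc4r KO point, at 53.0 FPKM, and most other pairs of points lie close together.

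Genes around the phosphatases were taken from 3 lists, to be read against all genes tested, of which 0.46% were called in either direction and 20.9% had an unadjusted p under 0.05. Of 20 kinases of the MAP kinase cascade, 19 were tested, 11 with a positive and 8 with a negative log2 fold change and a median of 0.00. An unadjusted p under 0.05 was found for 6, and the 1 called gene was Map2k6, a kinase that activates p38. It was at 2.35, 1.86 and 1.89 FPKM in WT and at 0.748, 0.707 and 0.778 in Mc4r KO (log2 fold change -1.33, standard error 0.15, limma adjusted p = 0.033), without overlap. Over the alternatives its adjusted p ran from 0.0098 to 0.234, and leaving out any library but WT replicate 3 took it to 0.0874 or more. In those fits 7 to 14 genes in all had an adjusted p under 0.05. Of 15 ERK-induced feedback and early genes, 14 were tested and none was called by limma, 1 by limma voom and 5 had an unadjusted p under 0.05, with 4 positive and 10 negative values and a median of -0.20. Phlda1, an early response gene, had the lowest p of this list, at 6.56 ± 0.494 FPKM in WT and 2.75 ± 0.906 in Mc4r KO (log2 fold change -1.27, adjusted p = 0.0579 with limma and 0.0111 with limma voom, n = 3), followed by the ETS factor Etv5 (log2 fold change -0.47, limma adjusted p = 0.114). The 28 tyrosine kinases and adaptors on which tyrosine phosphatases act were all tested and none was called by limma, 1 by limma voom and 9 had an unadjusted p under 0.05, with 8 positive and 20 negative values and a median of -0.10. Irs2, the insulin receptor substrate (log2 fold change -1.004, adjusted p = 0.0871 with limma and 0.0299 with limma voom), and Jak2 (-0.42, adjusted p = 0.104) had the lowest p. Gab1, a docking protein of SHP2, was looked at for that role and was at 12.0 ± 0.280 FPKM in WT and 11.4 ± 0.221 in Mc4r KO (log2 fold change -0.07, limma adjusted p = 0.660, n = 3). It does not stand for the other adaptors of the list. Irs1 was higher and Irs2, Frs2 and Sirpa were lower in Mc4r KO without overlap, while Gab2, Bcar1 and Pxn overlapped.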

How the data were processed

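Polyadenylated RNA of 3 WT and 3 Mc4r KO mouse hearts was sequenced in paired ends. After removal of low-quality reads, the authors used HISAT2 (version 2.0.5) for alignment and featureCounts for counting, and deposited FPKM per gene with gene length and position. Per the submitters' processing notes the build was mm10. The strand setting is not given in the sources used here. Of the gene identifiers, 99.8% were found in GENCODE M21, which gave overlaps and shared words of 50 bases. The product of FPKM and length moved in equal steps within a library, and 100% of the values came out as whole steps (tolerance 0.01 of a step), which gave the reads back.

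FPKM are not counts, so the test was limma (version 3.58.1, R 4.3.3, data.table version 1.17.8) on log2(FPKM + 0.1) with the mean-variance trend, all 6 libraries and no covariate, two-sided, with Benjamini-Hochberg adjustment over 18035 genes. Median-of-ratios factors were 1 in each library, so the deposited FPKM were already scaled between libraries beyond the read total. The total implied by the FPKM scale was 0.955 (WT replicate 1) to 1.06 (WT replicate 3) times the reads recovered. The script was tested on simulated data. P-values measure the spread between these mice, and floors of 3 reads cover counting error only. The same replicate number in both groups was not taken as a pairing. The members and lists were chosen with earlier results of these data known. Named genes were the members called by limma or limma voom, up to 10 members without overlap in each direction, the 4 most abundant Dusp, Ptpn and Ptpr genes, Ptpn2, the 10 MAP kinase phosphatases, and the called members of 3 pathway lists or else the 2 with the lowest p. Promoters are RefSeq's (GRCm38.p6). The alternatives were other pseudocounts, filters, scalings, variance models, a replicate block, the mitochondrial share as a covariate, limma voom, protein-coding genes only, no fold threshold, and fits without each library. Tables and figures used Python 3.11.15, pandas 2.3.3 and matplotlib 3.10.9.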

Additional observations from a re-analysis of the deposited data

How the results depend on the processing

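The number of phosphatase genes called higher was 1, and 0 with limma without trend, with the replicate block or with the mitochondrial share as a covariate, 2 with no fold threshold, and 0 to 1 without each library in turn (1 without WT replicate 3). No phosphatase gene was called lower in any setting. Genes called in all numbered 83, and 44 with a pseudocount of 1, 22 with no filter, 147 with a mean FPKM of at least 1, 49 with quantile normalization, 41 with scaling to the sum without mitochondrial genes, 21 without trend, 435 with array weights, 11 with the replicate block, 2 with the mitochondrial share, 317 with limma voom, 204 with protein-coding genes only, and 7 to 726 without each library in turn (726 without WT replicate 3). Higher members without overlap numbered 5, and 2 with the scaling without mitochondrial genes and 5 to 12 without each library in turn (12 without WT replicate 3). Lower members without overlap numbered 8, and 12 after the scaling without mitochondrial genes, 4 at a mean FPKM of at least 1, where fewer genes are tested, and 9 to 13 without each library in turn (13 without WT replicate 2, WT replicate 3 or Mc4r KO replicate 1). With 1 library less, non-overlap is easier to reach, and with the scaling without mitochondrial genes the median of all genes was -0.19. The matching shares over all genes are not given for these settings, so the counts cannot be read as particular to the phosphatases. Genes of the 3 pathway lists called numbered 1, and 0 with no filter, without trend, with the replicate block or with the mitochondrial share, 2 with a mean FPKM of at least 1, 3 with array weights, limma voom or protein-coding genes only, and 0 to 4 without each library in turn (4 without WT replicate 3); these alternatives, and the scaling of summed levels without mitochondrial genes, were chosen after seeing the data.

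The median log2 fold change of the members was -0.07, and -0.033 with a mean FPKM of at least 1, -0.13 with quantile normalization, -0.26 with the scaling without mitochondrial genes, -0.10 with the mitochondrial share, and -0.10 to -0.027 without each library in turn. The scaling without mitochondrial genes moved the median of all genes by -0.18, and 12 members were then higher and 38 lower.

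The sign turned for some genes that were not called. With quantile normalization the log2 fold change was -0.12 for Dusp1 and -0.018 for Ptprg and -0.15 for Rpl6. With scaling without mitochondrial genes it was -0.18 for Dusp1, -0.030 for Dusp7, -0.16 for Ptprg, -0.080 for Ptprs and -0.13 for Rpl6. With the mitochondrial share it was -0.50 for Dusp1, 0.12 for Dusp10, -0.031 for Dusp7, -0.071 for Ptpn1, 0.071 for Ptpn2, 0.32 for Ptprb, 0.077 for Ptprm, -0.20 for Ptprs, -0.50 for Ptpru and -0.077 for Rpl6. With array weights it was 0.0032 for Ptpn2 and -0.023 for Ptprg. Without each library in turn it was -0.088 to 0.23 for Dusp1, -0.62 to 0.064 for Dusp5, -0.33 to 0.053 for Dusp6, -0.19 to 0.079 for Ptpn2, -0.22 to 0.0088 for Ptprb and -0.078 to 0.095 for Ptprg. The cause of these changes was not tested. The replicate block is given as a setting only, because deviations of same-numbered libraries did not correlate (r = -0.141, 0.00735 and -0.0818 over 11297 genes); it took Ptpn11 to an adjusted p of 0.0712 in limma.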
